A study of Mus musculus with 7 samples.

Results

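The 9 genes described here carry out the last steps of retinoic acid signalling: the retinaldehyde dehydrogenases Aldh1a1, Aldh1a2 and Aldh1a3, the cellular retinoic acid-binding proteins Crabp1 and Crabp2, the nuclear receptors Rara, Rarb and Rarg, and the retinoic acid hydroxylase Cyp26b1. Positions given with each gene are RefSeq gene spans on GRCm38.p6. The genes were chosen by name for their roles, and all 9 were found among the 27179 genes of the deposited table of CPM (a gene's reads scaled to the library's total). RNA sequencing had been carried out on 7 libraries of cells from Wnt1-Cre;tdTomato (Wnt1-tdT) mice, made by crossing Wnt1-Cre with R26R-tdT reporter mice. Cre is driven by the Wnt1 promoter there, and tdTomato then stays on in all progeny of the embryonic crest, so the label marks ancestry and not a cell type. Each library came from about 50000 cells, pooled from 3 mice (2 female, 1 male) aged 1 month. No group has a second library.

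From subcutaneous fat pads, tdTomato-positive cells were sequenced after sorting (adipose primary) or as adipose neurospheres. From the muscle layer and myenteric plexus of the small bowel, there were sorted positive cells (bowel primary) and M1 neurospheres, grown for 10 days from cells sorted first. Mixed spheroids of unsorted bowel cells were separated at 10 days into tdTomato-positive and tdTomato-negative cells, 1 library each. The last library was M2 neurospheres, grown for 10 further days from sorted spheroid cells. The adipose neurospheres were grown in the same 2 stages as M2. The proliferation medium held basic fibroblast growth factor and epidermal growth factor at 20 ng/ml each, with heparin, and the labels name no added retinoid and do not give the composition of its supplement.

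Retinoic acid is made from vitamin A. Retinol dehydrogenases turn retinol into retinaldehyde, which the ALDH1A enzymes oxidise irreversibly to retinoic acid. CRABP proteins carry the acid in the cytoplasm, RAR receptors bound to RXR partners read it at DNA, and CYP26 enzymes break it down. In the gut the acid made by mesenchyme acts on migrating enteric crest cells and is needed for their colonisation of the bowel, and intestinal dendritic cells and macrophages are known producers in the adult.

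Library totals ran from 51885106 to 65301500 reads assigned to genes, and 3 reads corresponded to 0.0459 to 0.0578 CPM. With 1 library in each group no difference below has a replicate check, and the 95% intervals cover counting error only. A gene counts as measured when at least 1 of the compared libraries reached 1 CPM, and is called higher or lower where it differed 4-fold with its counting interval wholly beyond 2-fold. Ratios are log2 of reads scaled between libraries, so that 1 unit is a doubling. In bulk RNA, fewer cells of a type and less RNA per cell cannot be told apart. The labelled cells were checked against marker genes. The 7 glial markers summed to between 1291 and 4547 CPM in the 6 tdTomato-positive libraries and to 23.2 CPM in the negative one. The primary libraries also held genes typical of other cells: 7 pancreatic acinar genes summed to 39905 CPM in bowel primary cells and to at most 4.07 CPM elsewhere, and 12 mature dendritic cell genes summed to 6424 CPM in adipose primary cells against 192 to 401 CPM in the others.

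Aldh1a1 (chromosome 19, 20492583 to 20643463) was high in both primary libraries, with 217 CPM in bowel and 135 CPM in adipose cells. It had 6.59 CPM in M1 neurospheres, 5.21 CPM in tdTomato-negative and 0.975 CPM in tdTomato-positive spheroid cells, 0.214 CPM in M2 neurospheres and 0.0812 CPM, or 5 reads, in adipose neurospheres. Both primary libraries stood above all 5 cultured ones, and the counting intervals of the lowest pair, M2 and adipose neurospheres, overlapped. Aldh1a1 is nearly identical to its paralog Aldh1a7, and reads of one may have been counted for the other. Aldh1a7 had 16.9 and 13.5 CPM in adipose and bowel primary cells and at most 0.383 CPM in the cultured libraries.

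Aldh1a2 (chromosome 9, 71215789 to 71296243), the main enzyme of the embryo's mesenchyme, was highest outside the crest lineage, with 597 CPM in tdTomato-negative spheroid cells. Bowel primary cells had 141 CPM, M1 neurospheres 37.1 CPM, M2 neurospheres 21.1 CPM and positive spheroid cells 12.9 CPM. The adipose libraries were lowest, with 4.37 CPM in primary cells and 1.83 CPM in neurospheres. All 5 bowel libraries were above both adipose ones, and no neighbours in this order had overlapping counting intervals.

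Aldh1a3 (chromosome 7, 66390892 to 66427477) was also highest in tdTomato-negative spheroid cells, with 932 CPM. It followed at 119 CPM in bowel primary cells, 96.6 CPM in M1 neurospheres, 84.3 CPM in adipose primary cells, 52.7 CPM in M2 neurospheres, 35.1 CPM in adipose neurospheres and 20.2 CPM in positive spheroid cells. It was the one enzyme of the 3 that stayed above 10 CPM in every library. Its counting intervals were apart at each step.

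Levels of different genes were compared as CPM per kilobase of merged exon. On this scale Aldh1a1 made up 72.9% of the summed level of the 3 enzymes in adipose primary cells and 50.4% in bowel primary cells, but at most 6.73% in each cultured library. In tdTomato-negative spheroid cells Aldh1a2 had 263 and Aldh1a3 had 210.2 CPM per kilobase, against 2.18 for Aldh1a1. In M2 neurospheres the same 3 levels were 9.33, 11.9 and 0.0895 CPM per kilobase.

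**Figure D1:**
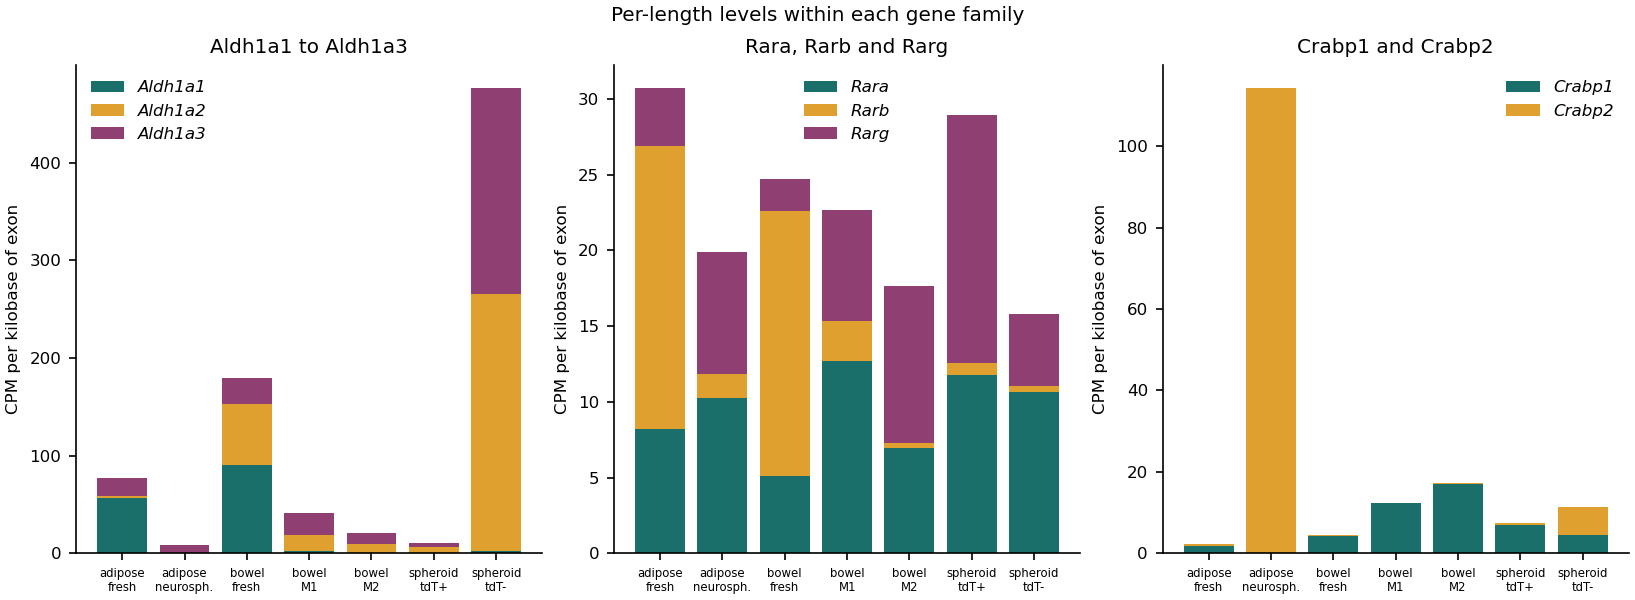
Levels of the enzymes, binding proteins and receptors in CPM per kilobase of merged exon in 3 panels, with 1 stacked bar per library coloured by gene (fresh means primary). Aldh1a1 holds 72.9% of the enzyme level in adipose primary cells, Rarb 70.8% of the receptor level in bowel primary cells and Crabp2 99.9% of the binding protein level in adipose neurospheres.

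Crabp1 (chromosome 9, 54764748 to 54773110), a carrier that marks crest cells and some neurons of the embryo, was low throughout. It had 13.7 CPM in M2 neurospheres, 9.83 CPM in M1 neurospheres, 5.65 CPM in positive and 3.63 CPM in negative spheroid cells, 3.36 CPM in bowel primary cells, 1.37 CPM in adipose primary cells and 0.0974 CPM, or 6 reads, in adipose neurospheres. Both adipose libraries were below all 5 bowel ones. Negative spheroid cells and bowel primary cells had overlapping counting intervals.

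Crabp2 (chromosome 3, 87948693 to 87953372), which hands retinoic acid to the receptors in the nucleus, gave the opposite picture. It had 106 CPM in adipose neurospheres and 6.34 CPM in tdTomato-negative spheroid cells, and was under 1 CPM in the other 5 libraries. Those were adipose primary cells with 0.594 CPM, positive spheroid cells with 0.325 CPM, bowel primary cells with 0.208 CPM and M2 neurospheres with 0.184 CPM, each overlapping the next in counting error, and M1 neurospheres with 0 reads, apart from M2. At the depth of M1, 0 reads allow up to 0.0578 CPM (3 reads). Per kilobase, Crabp2 was 99.9% of the summed level of both carriers in adipose neurospheres and 60.0% in negative spheroid cells.

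Among the receptors, Rara (chromosome 11, 98927800 to 98974942), the broadly expressed form, varied least of the 9 genes. It ran from 21.9 CPM in bowel primary cells through 29.7 (M2), 35.1 (adipose primary), 43.9 (adipose neurospheres), 45.5 (negative spheroid cells) and 50.5 (positive spheroid cells) to 54.2 CPM in M1 neurospheres, a 2.48-fold range. M1 and positive spheroid cells overlapped in counting error, as did negative spheroid cells and adipose neurospheres.

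Rarb (chromosome 14, 16430839 to 17082331), a receptor whose gene is itself induced by retinoic acid, had 63.4 CPM in adipose and 59.3 CPM in bowel primary cells. In culture it had 9.17 CPM in M1 neurospheres, 5.32 CPM in adipose neurospheres, 2.63 CPM in positive spheroid cells, 1.42 CPM in negative spheroid cells and 1.23 CPM in M2 neurospheres. The primary libraries were again above every cultured one, and only the lowest 2 libraries had overlapping intervals. Rarb was 60.9% of the summed receptor level per kilobase in adipose primary cells and 70.8% in bowel primary cells, against 2.05% to 11.9% in the cultured libraries.

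Rarg (chromosome 15, 102234938 to 102257522), the receptor found mostly in skin and skeletal precursors, ran the other way. It was lowest in bowel primary cells with 7.12 CPM and adipose primary cells with 12.9 CPM. Negative spheroid cells followed with 16.2 CPM, M1 neurospheres with 24.8 CPM, adipose neurospheres with 27.5 CPM, M2 neurospheres with 35.2 CPM and positive spheroid cells with 55.6 CPM. All 5 cultured libraries were above both primary ones, and no counting intervals of neighbours overlapped.

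Cyp26b1 (chromosome 6, 84571414 to 84593908), which clears retinoic acid, never reached 2 CPM. Positive spheroid cells had 1.84 CPM, M2 neurospheres 1.56 CPM, negative spheroid cells 1.39 CPM, bowel primary cells 0.728 CPM, adipose primary cells 0.453 CPM, adipose neurospheres 0.357 CPM and M1 neurospheres 0.328 CPM. Within the upper 3 and within the lower 4 of these, each neighbouring pair overlapped in counting error. Its family member Cyp26a1 had at most 0.745 CPM and 0 reads in 3 libraries.

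**Figure D2:**
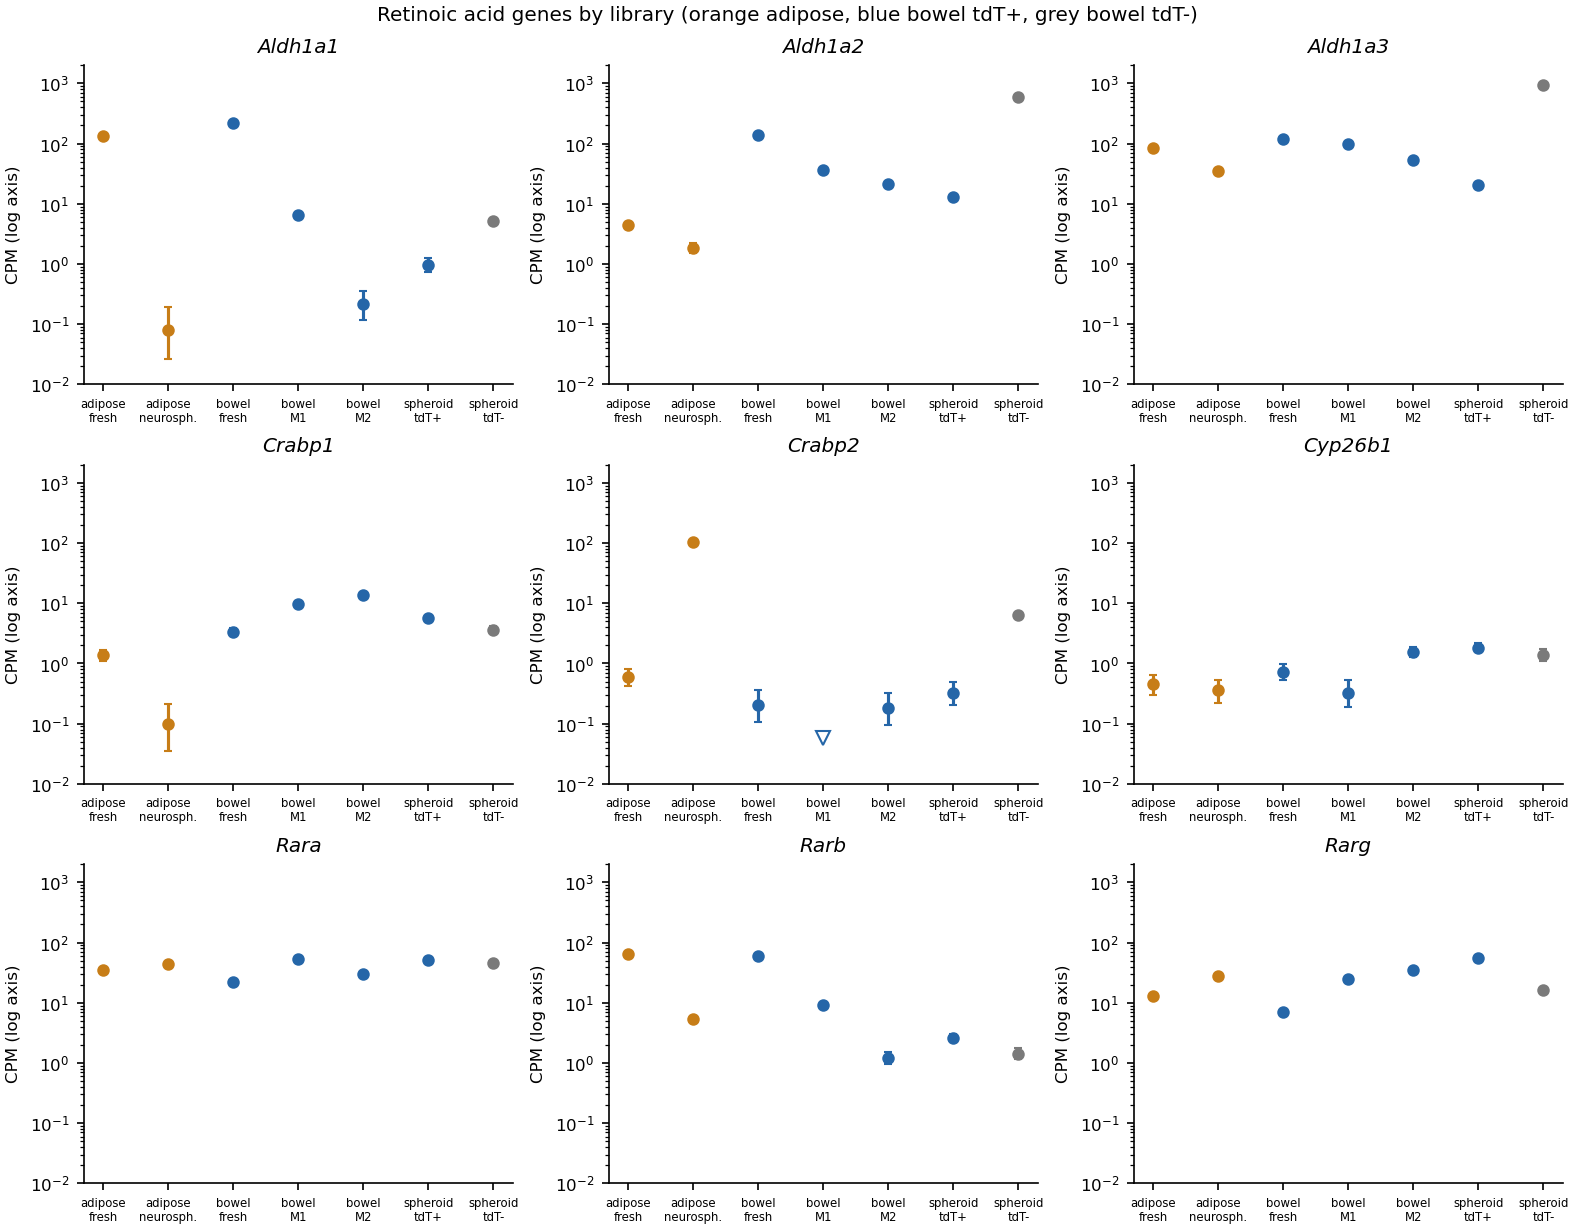
CPM (log axis) of the 9 genes in each of the 7 libraries, with 95% counting intervals and an open triangle at 3 reads where a library had 0. Aldh1a1 and Rarb are highest in the 2 primary libraries, Aldh1a2 and Aldh1a3 in tdTomato-negative spheroid cells at 597 and 932 CPM, and Crabp2 in adipose neurospheres at 106 CPM.

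Rarb is the textbook case of a gene with a DR5 retinoic acid response element, a direct repeat of a 6-base half-site with a 5-base spacer. RefSeq promoter windows of GRCm38.p6 (250 bases before to 50 after a start) were searched on both strands for this element. A match was found in 32 of 32851 windows, or 0.0974%. A window was given for 7 of the 9 genes, and of these Rarb held a match. It lies 53 to 37 bases before one of the starts of Rarb, which is inside the gene span given above and not at its upstream end. Of the 16 genes with a window among those known to be induced by retinoic acid, Cyp26a1 held one. Both are printed 5′ to 3′ because Rarb differed between primary and cultured cells and Cyp26a1 is a known target with the same element; capitals mark the repeat, read on the gene's strand for Rarb (chr14:16575506-16575535, minus strand) and on the opposite strand of the printed one for Cyp26a1 (chr19:37697770-37697799, plus strand). A match is a description of the letters and was not tested for binding.

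Rarb: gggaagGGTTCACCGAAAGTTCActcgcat
Cyp26a1: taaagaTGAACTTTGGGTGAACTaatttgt

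The sort of bowel spheroids asked which transcripts separate crest from non-crest cells grown together. All 3 enzymes and Crabp2 were lower in tdTomato-positive than in negative cells, at log2 ratios of -5.77 (-5.88 to -5.68) for Aldh1a2, -5.77 (-5.85 to -5.69) for Aldh1a3, -4.39 (-5.24 to -3.90) for Crabp2 and -2.62 (-3.07 to -2.27) for Aldh1a1. That is 4 lower and 0 higher of 9 genes, all of them measured, where 12.5% of the 13951 measured genes were lower and 6.64% higher. The receptors did not pass: Rarg had a ratio of 1.53, Rarb 0.63 and Rara -0.09. Crabp1 had 0.39 and Cyp26b1 0.16. In the list of 26 genes for retinoid uptake, storage and retinaldehyde supply, 6 of 14 measured were lower and 2 higher, with a median of -0.96 beside 0.01 over all genes. Rdh10, the retinol dehydrogenase that supplies retinaldehyde to these enzymes in the embryo, was lower too, with 11.0 against 144.5 CPM (-3.95). Cyp1b1, a cytochrome that can also make retinoic acid, had 2.46 against 96.6 CPM (-5.52). On the receiving side, 2 of 5 receptor partners were higher in positive cells: the retinoid X receptor Rxrg (4.60 against 0.263 CPM, 3.75) and Fabp5, which carries retinoic acid to another receptor, PPAR delta (35.3 against 5.69 CPM, 2.38). Several lists of other cell types moved with the enzymes. The 9 fibroblast markers, none of them at 0 reads in either library, summed to 24596 CPM in negative and 865 CPM in positive cells, and 8 of them were lower. The 8 mesothelial markers summed to 64.4 and 1.32 CPM. The 5 markers of interstitial cells of Cajal, the pacemaker cells of the gut, summed to 4101 and 64.3 CPM, with 3 of 4 measured lower. Thbs4 alone made up 3939 of the 4101 CPM. The 8 smooth muscle markers summed to 362 and 87.5 CPM, with 4 of 7 measured lower. The part of these cells in the enzyme difference was not tested.

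The primary libraries compare freshly sorted crest cells of fat and bowel. Of the 7 genes measured, 1 passed: Aldh1a2 was lower in adipose cells by 5.02 log2 units (-5.20 to -4.85), a 32.4-fold difference, where 11.4% of 15585 genes were lower and 7.09% higher. Ratios of the others lay between -1.29 for Crabp1 and 0.83 for Rarg. Rarb had 0.08 (63.4 against 59.3 CPM). Among the partners, Rxrg was higher in adipose cells, with 282 against 29.97 CPM (3.21). In the supply list 3 of 19 measured were lower and 2 higher. The endothelial and adipose retinol carrier Rbp7 was higher (33.7 CPM in adipose cells, 3.92). Of the 25 genes known to be induced by retinoic acid, 11 of 21 measured were lower and 2 higher in adipose cells, with a median of -2.03 beside 0.09 over all genes; 4 of the lower were Hoxb5, Hoxa5, Hoxa2 and Ret. Markers of other cells moved with Aldh1a2: the mesothelial list summed to 22.1 CPM in adipose and 1570 CPM in bowel primary cells with no marker at 0 reads, and the smooth muscle list to 444 and 25284 CPM. Fibroblast markers summed to 12132 CPM in adipose and 5315 CPM in bowel cells, and Col3a1 alone made up 8326 of the 12132 CPM. Of these 9 markers 4 were higher and 1 lower in adipose cells, with a median log2 ratio of -0.75. The 8 neuronal markers, all of them lower, summed to 58.9 CPM in adipose and 1483 CPM in bowel cells. The part of these cells in the differences was not tested.

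Neurospheres of fat and of bowel, both grown in 2 stages, differed mainly in the carriers. Of 8 genes measured, 2 were higher in adipose neurospheres, where 5.33% of 13440 genes were: Crabp2 at 9.06 (8.49 to 10.25) and Rarb at 2.21 (1.88 to 2.61). Crabp1 was lower at -6.63 (-8.46 to -5.88) and Aldh1a2 at -3.38 (-3.70 to -3.13), where 8.71% of genes were. Adipose neurospheres thus had 106 CPM of Crabp2 and 0.0974 CPM of Crabp1, and M2 neurospheres 0.184 and 13.7 CPM. The call on Rarb depended on the bowel library: against M1 in place of M2 its ratio was -0.49, and against positive spheroid cells 1.02. Rara (0.69), Rarg (-0.23) and Aldh1a3 (-0.47) did not pass. Dhrs3, which turns retinaldehyde back into retinol and is known to be induced by retinoic acid, was higher in adipose neurospheres with 161 against 5.38 CPM (5.02), as was the retinol dehydrogenase Rdh5 with 34.1 against 5.64 CPM (2.71). Rxrg (3.12 against 27.7 CPM, -3.02) and Fabp5 (18.0 against 88.7 CPM, -2.18) were lower. In the list of genes induced by retinoic acid, 8 of 16 measured were lower and 2 higher, with a median of -1.76 beside -0.01 over all genes. The fibroblast markers summed to 1400 CPM in adipose neurospheres and 471 CPM in M2, with 2 of the 8 measured higher and 1 lower. The neuronal markers summed to 720 and 840 CPM, with 1 of 8 higher and 5 lower in adipose neurospheres, and the part of these cells in the differences was not tested.

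**Figure D3:**
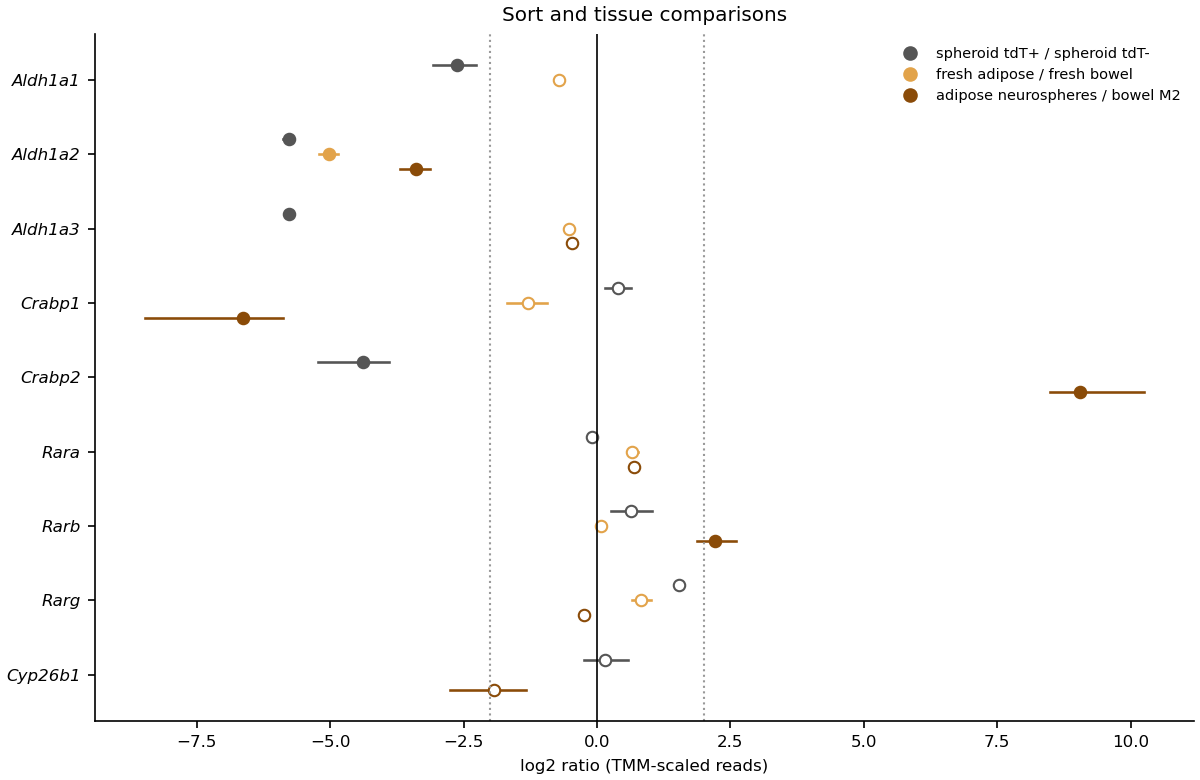
Log2 ratios of the measured genes in the spheroid sort, between primary adipose and bowel cells and between adipose and M2 neurospheres, with 95% counting intervals; filled points pass the 4-fold rule and dotted lines stand at 4-fold. The 3 enzymes and Crabp2 lie left of the line in the sort, and Crabp1 and Crabp2 lie at -6.63 and 9.06 between the neurospheres.

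Culture was examined by setting each cultured crest library against the primary cells of its tissue. In adipose neurospheres Aldh1a1 fell from 135 to 0.0812 CPM, a log2 ratio of -10.35 (-12.47 to -9.62). Rarb fell by 3.71 (-3.89 to -3.56), Crabp1 fell by 3.57 (-5.45 to -2.79) from a low start, and Crabp2 rose by 7.27 (6.88 to 7.84). These are 3 lower and 1 higher of 8 genes measured, where 20.8% of 14773 genes were lower and 5.71% higher. Aldh1a2 had -1.38, Aldh1a3 -1.41, Rara 0.18 and Rarg 0.94.

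In bowel M2 neurospheres Aldh1a1 fell by 10.05 (-11.14 to -9.52), from 217 to 0.214 CPM. Rarb fell by 5.84 (-6.22 to -5.56), Aldh1a2 fell by 3.02 (-3.10 to -2.94), and Rarg rose by 2.01, with a counting interval down to 1.87. The calls were 3 lower and 1 higher of 8 genes measured, where 21.0% of 15189 genes were lower and 5.89% higher. The rise of Rarg lay at the edge of the rule, since it was 1.99 with DESeq2 size factors. Crabp1 had 1.73 and did not pass, and it reached 2.01 and passed when libraries were scaled by their totals.

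In M1 neurospheres, after 10 days, Aldh1a1 fell by 5.49 (-5.66 to -5.35), Rarb by 3.15 (-3.29 to -3.01) and Aldh1a2 by 2.38 (-2.46 to -2.31). These 3 of 7 genes measured stand beside 16.3% of 15422 genes lower and 6.58% higher, with 0 of the 7 higher. Scaled by library totals, Aldh1a2 had -1.92 and lost its call. That scaling also moved the median ratio of all genes in this comparison from -0.07 to 0.38, and the share of higher among called genes from 28.7% to 44.7%. Rarg had 1.34, Crabp1 1.08 and Aldh1a3 -0.76.

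Positive cells that had spent 10 days in mixed spheroids are the third bowel library compared with the same primary cells, so these comparisons share their control and are not independent. Of 8 genes measured, Aldh1a1 (-7.92, -8.35 to -7.61), Rarb (-4.65, -4.90 to -4.45), Aldh1a2 (-3.62, -3.73 to -3.52) and Aldh1a3 (-2.73, -2.82 to -2.65) were lower, where 20.4% of 15232 genes were, and Rarg was higher at 2.79 (2.64 to 2.94), where 6.57% were. Against M1, M2 neurospheres were lower in Aldh1a1 at -4.57 with an interval down to -5.66 and Rarb at -2.70 (-3.09 to -2.39), where 7.37% of 14141 genes were lower, and higher in Cyp26b1 at 2.30 (1.68 to 3.26), where 1.20% were higher. Cyp26b1 had 17 reads in M1 and 102 in M2. Against positive spheroid cells, 0 of 7 genes measured passed in M2 neurospheres, where 3.07% of 13432 genes were higher and 3.86% lower.

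Most leukocyte markers moved with Aldh1a1 and Rarb between the primary and cultured libraries. The 8 macrophage markers summed to 1704 CPM in adipose and 4283 CPM in bowel primary cells, 1336 CPM in M1 neurospheres, 112 CPM in negative and 35.1 CPM in positive spheroid cells, 28.9 CPM in M2 and 27.9 CPM in adipose neurospheres, with no marker at 0 reads in any library. In M1 the lysozyme gene Lyz2 made up 1213 of the 1336 CPM, and 7 of the 8 markers were lower in M1 than in bowel primary cells. Of the 12 mature dendritic markers, 3 were at 0 reads in adipose neurospheres (Ccl17, Il4i1 and H2-DMb2). In M2 there were 4 (Ccr7, Ccl22, Ccl17 and H2-DMb2), though bowel primary cells had only 1.39 CPM of Ccr7 and 0.537 CPM of Ccl17. Against primary cells, 10 of 12 measured were lower and 0 higher in adipose neurospheres. In M1 5 of 8 were lower and 1 higher, and in M2 7 of 8 were lower and 1 higher. The higher marker was Fscn1 in both, and it made up 206 of the list's 233 CPM in M2. The list summed to 401 CPM in bowel primary cells. The 8 lymphocyte markers summed to 381 CPM in adipose primary cells, 18.2 CPM in bowel primary cells and at most 6.23 CPM in culture. Smooth muscle markers moved too in the bowel, from 25284 CPM in primary cells to between 68.4 and 219.7 CPM in the positive cultured libraries. Other lists moved there with Aldh1a2. Mesothelial markers summed to 1570 CPM in bowel primary cells, 103 CPM in M1, 1.32 CPM in positive spheroid cells and 0.429 CPM in M2. Fibroblast markers summed to 5315, 2200, 865 and 471 CPM in the same 4 libraries. Of the 9 fibroblast markers 5 were lower in M1 and 8 in M2, with 0 higher, though Fbln1 had 141 CPM in primary cells and 733 CPM in M1. The part of these cells in the levels of Aldh1a1, Aldh1a2 and Rarb was not tested.

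**Figure D4:**
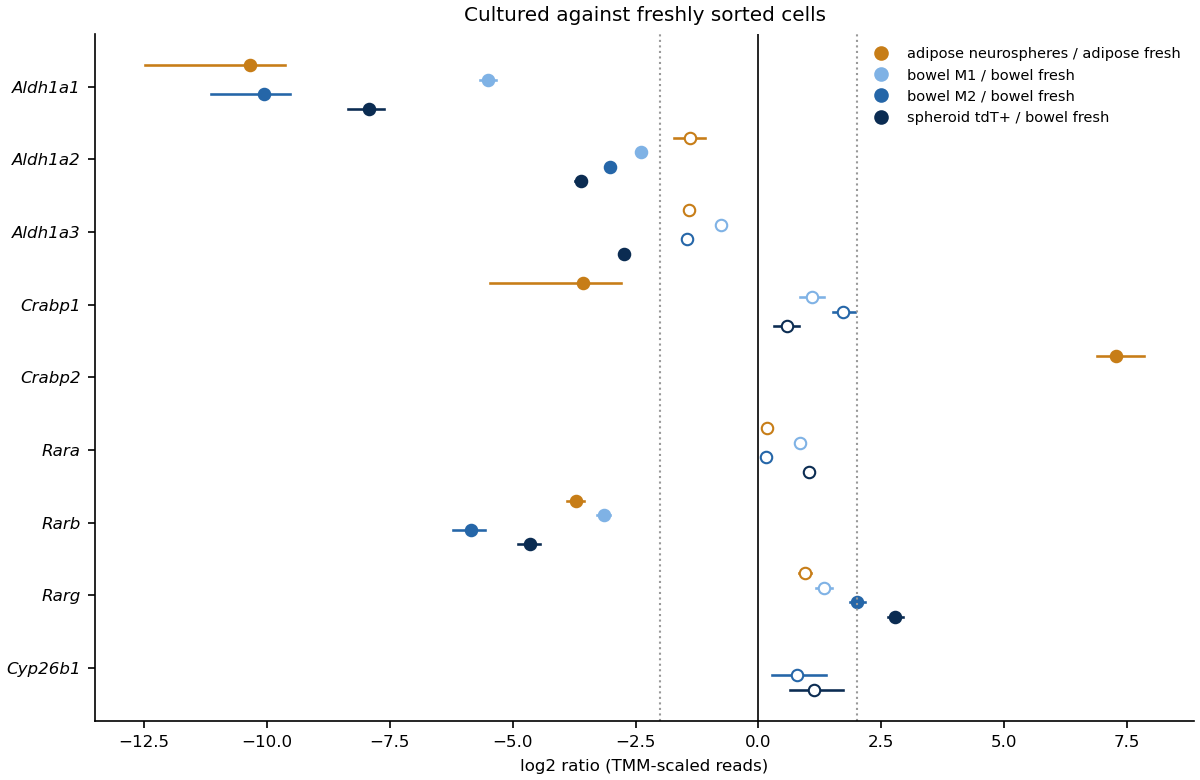
Log2 ratios of the measured genes in adipose neurospheres, bowel M1 and M2 neurospheres and positive spheroid cells, each against the primary cells of its tissue, with 95% counting intervals; filled points pass the 4-fold rule. Aldh1a1 and Rarb lie beyond the lower line in all 4 comparisons, told apart by colour (fresh means primary), while Crabp2 at 7.27 is the one point beyond the upper line for adipose cells.

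The wider pathway was followed through 70 genes in 5 lists. In the supply list, 8 of 17 measured were lower and 1 higher in adipose neurospheres than in primary cells, 8 of 18 lower and 0 higher in M1, and 10 of 19 lower and 1 higher in M2. The list's medians were -0.26, -1.70 and -2.84, beside -0.01, -0.07 and -0.07 over all genes. Of all genes measured, 20.8%, 16.3% and 21.0% were lower and 5.71%, 6.58% and 5.89% higher in the same 3 comparisons. The alcohol dehydrogenase Adh1, which can oxidise retinol, had 15.6 CPM in adipose and 12.5 CPM in bowel primary cells. It had 0 reads in adipose and M1 neurospheres, at least 355-fold and at least 297-fold lower, and 2 reads in M2 (-7.85, -12.01 to -7.10). Rbp4, the retinol carrier of blood, had 0 reads in adipose and M2 neurospheres, at least 217-fold and at least 637-fold lower. Dhrs3 parted by tissue in the neurospheres: in adipose cells it had 128 CPM before and 161 CPM after culture, whereas in bowel it fell from 108 to 3.55 CPM in M1 (-5.37) and 5.38 CPM in M2 (-4.61). Positive spheroid cells of the bowel lay between, with 31.2 CPM, and M2 was lower than these cells (-2.64). The difference between the tissues was not tested.

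Of the 5 partners, Rxrg fell in adipose neurospheres from 282 to 3.12 CPM (-6.63) and in M1 from 29.97 to 8.75 CPM (-2.23). It was lower in positive spheroid cells too (4.60 CPM, -2.87), but in M2 it had 27.7 CPM and did not pass (-0.40). Fabp5 rose in M2 from 17.6 to 88.7 CPM (2.05). Rxrb stayed between 43.2 and 67.5 CPM in all 7 libraries and Rxra ran from 12.4 to 64.4 CPM. Of the 14 cofactors 13 were measured, and none passed in either direction in the sort, between the primary libraries, in M1 or in M2. In adipose neurospheres 1 rose and 1 fell, the latter being Zfp423, a zinc-finger cofactor of the receptors (0.925 against 4.70 CPM, -2.45).

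In the list of 25 genes known to be induced by retinoic acid, which includes Hox genes that also differ by body position, 8 of 16 measured were lower and 1 higher in adipose neurospheres than in primary cells. In M1 8 of 21 were lower and 1 higher, and in M2 13 of 21 lower and 1 higher. The shares over all genes were again 20.8%, 16.3% and 21.0% lower, and 5.71%, 6.58% and 5.89% higher. The medians were -2.09, -1.74 and -2.36, beside the same values over all genes as above. Rarres2, the chemoattractant chemerin, had 381 CPM in adipose primary cells and 4 reads in the neurospheres (-12.06), and fell in bowel from 359 to 9.56 CPM in M1 (-5.68) and 29.4 CPM in M2 (-3.89). Tgm2, a transglutaminase, fell from 154 to 2.99 CPM in adipose cells (-5.82) and in bowel from 186 to 12.3 CPM in M1 (-4.37) and 3.11 CPM in M2 (-6.17). Meis2, a homeobox factor, fell from 38.3 to 7.54 and 0.643 CPM in M1 and M2. Ret went the other way in the bowel neurospheres, from 55.7 CPM in primary cells to 374 CPM in M1 and 274 CPM in M2. In the sort the list was mixed, with 5 higher and 7 lower of 19 measured, where 6.64% and 12.5% of all genes were, and a median of -0.25 beside 0.01. There Itga4, an integrin of migrating crest cells, was higher in positive cells (4.51) and Meis1 lower (-4.08). Several of these genes are also expressed by leukocytes or fibroblasts, whose marker levels are given above, and their part was not tested.

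**Figure D5:**
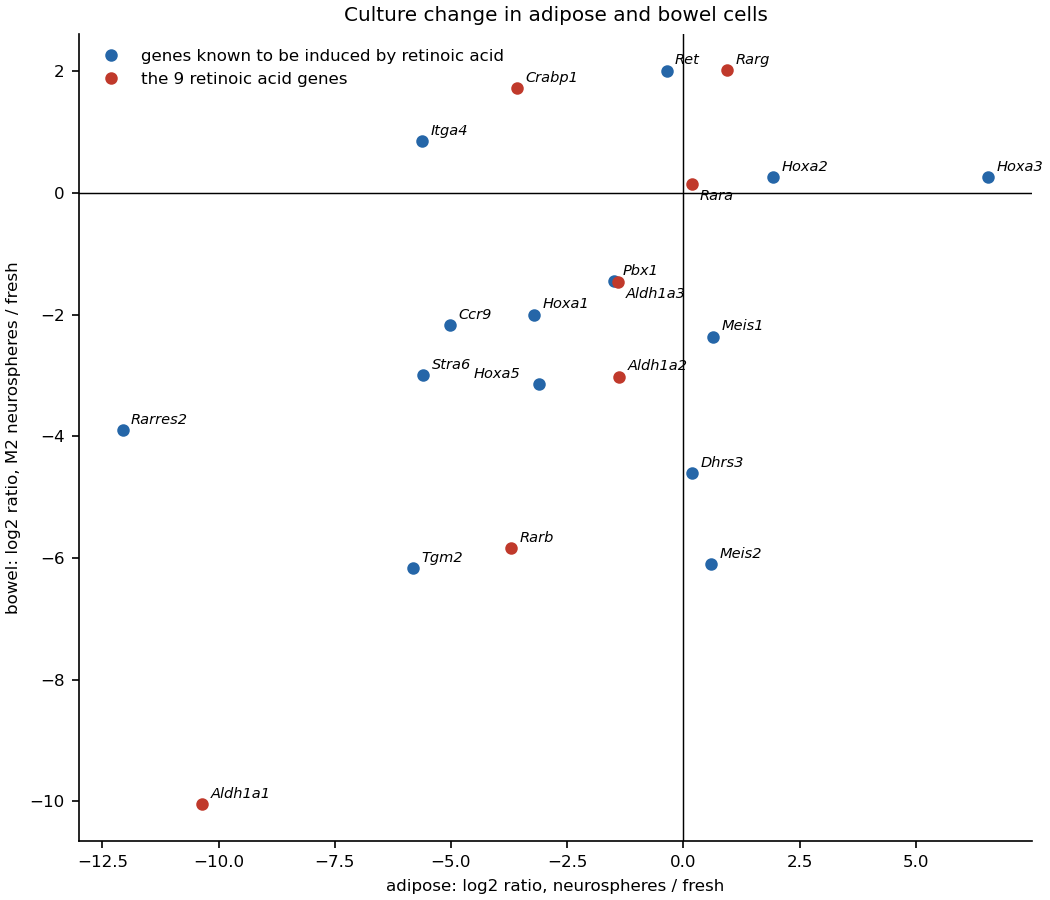
Log2 ratio of adipose neurospheres against adipose primary cells (x axis) and of bowel M2 neurospheres against bowel primary cells (y axis) for genes measured in both comparisons, showing 7 of the 9 genes and 14 of the retinoic acid-induced list. Aldh1a1 sits at -10.35 and -10.05 on the x and y axes, and Crabp1 at -3.57 and 1.73.

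To place the profiles among other genes, each was centred on its mean log2(CPM + 1) over the 7 libraries and compared with 12187 genes that reached 10 CPM in a library, by root mean square difference in log2 units. The nearest profiles to Aldh1a1 were Irf8 (0.545), Spint2 (0.580) and Coro1a (0.612). For Rarb they were Ciita (0.436), Lpxn (0.460) and Cd72 (0.471). Aldh1a3 was nearest to Cacna1c (0.436), Chst2 (0.436) and Cyp1b1 (0.453), and Aldh1a2 to Kcnma1 (0.668), Egln3 (0.669) and Cxadr (0.774). Crabp1 was nearest to Fbxw7 (0.364), Tyro3 (0.400) and Pak3 (0.423). Crabp2 had 1 near profile, Prl2c3 (0.254), with Acan (0.795) further away. Rara lay close to Usp24 (0.0887), Srrm2 (0.0928) and Ash1l (0.109), and Rarg to Ehbp1 (0.138), Arl5a (0.193) and Plekhg3 (0.205). Rara varied least over the libraries and had the smallest distances. With 7 libraries these distances are a description only.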

How the data were processed

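The authors deposited CPM for 27179 Entrez genes. Tools named per the submitters' processing notes are featureCounts, HISAT and bcl2fastq 2.17, with the build mm10; their settings, the annotation and the use of strand were not given in the sources used here. Per the labels' protocols, cDNA was amplified with SMART-Seq v4 and made into libraries with Nextera XT. Reads amplified without molecular identifiers are not independent molecules. All deposited CPM values were whole multiples of 1 read within 0.05 read, so whole reads were recovered. A count test could not be run with 1 library per group. Symbols and chromosomes came from RefSeq for GRCm38 by Entrez identifier, which matched 25275 of 27179; the 1904 others held 0.222% to 0.351% of a library's reads.

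Libraries were scaled by TMM (edgeR 4.0.16, R 4.3.3) over the 16461 genes reaching 1 CPM or more in a library. Ratios were taken after adding a prior count of 2, which pulls those of low genes towards 0, with exact conditional binomial 95% counting intervals; a 0 was bounded by 3 reads per library. CPM per kilobase used merged exon lengths of GENCODE M21, since a transcript length as planned was not given; isoform use is ignored. The genes, 5 pathway lists and 14 marker lists were chosen with earlier results of these data known. From each pathway list, up to 4 genes at 10 CPM or more in a library that passed in a comparison were named by size of ratio, and for each of the 9 genes at that level the 3 nearest profiles; Aldh1a7, Cyp26a1, Rxra, Rxrb, and values of named genes in further libraries, were added after their values were seen. Single marker genes were also named after their values were seen. Not every gene picked by these rules is reported. Simulated reads were used to test the steps. Alternatives were library totals, DESeq2 1.42.0 size factors, other filters, a prior count of 0.5, a 2-fold rule, other bowel libraries in the neurosphere comparison and, added after seeing the data, leaving out acinar genes. Plots used matplotlib 3.10.9, and tables Python 3.11.15 with pandas 2.3.3, scipy 1.17.1 and numpy 2.4.6.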

Additional observations from a re-analysis of the deposited data

Results flagged for a closer look

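The culture ratios of Crabp1 had opposite signs in fat and bowel. From primary cells to neurospheres grown in 2 stages its log2 ratio was -3.57 in adipose cells and 1.73 in bowel cells, so that the change in adipose cells minus that in bowel was -5.3. The adipose value passed the 4-fold rule and the bowel value did not. The difference between the tissues was not tested, since each group has 1 library, and the adipose end point rests on 6 reads.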

How the results depend on the processing

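Counts of the 9 genes past the rule stayed within 1.5 times the reported count in all 9 comparisons with library totals, DESeq2 size factors, a 5 CPM filter, a prior count of 0.5 or acinar genes left out. Under a 2-fold rule, with the interval beyond equality, they became 2 in place of 1 between the primary libraries, 5 in place of 3 in M1 against primary cells, and 3 in place of 0 in M2 against positive spheroid cells, where dropping the filter gave 1. Rarb between the neurospheres turned from 2.21 to -0.49 with M1 as the bowel library. With DESeq2 size factors, a prior count of 0.5 or acinar genes left out, each of the 70 ratios stayed within its counting interval; with library totals 35 of 70 did. Library totals moved the median of all genes by over 0.1 in 8 of 9 comparisons, for example from 0.01 to 0.25 in the sort. Cyp26b1 was lower in adipose than in M2 neurospheres under totals (-2.04), and lower than in positive spheroid cells (-2.26). The 5 CPM filter left Crabp1 in adipose culture and Cyp26b1 in M2 against M1 unmeasured. Aldh1a1 was lower in adipose than in M1 neurospheres (-5.58). No paired analysis was possible because each group holds 1 library. Depth limits Crabp1, Crabp2, Aldh1a1 and Cyp26b1 where they rest on few reads.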

Other observations

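Of the 31 genes with a DR5 match in a promoter window, 14 were found in the table. After culture 5 were measured in adipose cells, with 1 higher and 3 lower, and 5 in bowel cells, with 0 higher and 4 lower in M1 and the same counts in M2. Over all genes, 20.8% were lower and 5.71% higher in adipose neurospheres, 16.3% and 6.58% in M1, and 21.0% and 5.89% in M2. The list includes Rarb, and with so few genes these counts are given as values only.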
